A study of Harpegnathos saltator with 12 samples.

Results

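Ionotropic receptors (IRs) are chemosensory ion channels that descend from the ionotropic glutamate receptors of synapses. A tuning IR, which sets what the cell detects, assembles with 1 or more broadly expressed co-receptors, such as Ir8a, Ir25a or Ir76b. This complex does not use Orco, the co-receptor of the odorant receptors (ORs). The conserved IRs are those with clear relatives across insects. They include acid sensors of the Ir75 family, which in Drosophila depend on Ir8a. They also include Ir68a and Ir93a, which in Drosophila act with Ir25a in sensing humidity and temperature. The genes described here are called the conserved tuning IRs of the ant Harpegnathos saltator, and were chosen by name from the curated annotation. Whether each acts as a tuning receptor or as a co-receptor was not tested. A member is any gene named HsIr with a number under 300, apart from the co-receptors HsIr8a, HsIr25a.1, HsIr25a.2 and HsIr76b, whose raw count averaged at least 10 per library. There are 7 members among 23 HsIr genes and 14407 genes in all, and each of the 7 genes with such a name passed the count minimum. They are HsIr93a, HsIr68a, the copies HsIr75f.1, HsIr75f.2 and HsIr75f.3, and the copies HsIr75u.1 and HsIr75u.2.

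Antennal polyA RNA of adults was sequenced in 12 libraries, from wild-type ants (n = 2), ants heterozygous for a mutation of orco (n = 3) and homozygous orco mutants (n = 7). Wild-type and heterozygous samples served jointly as controls (n = 5), and the question was how receptor expression in the adult antenna differs when orco is lost. Sequencing ran in 2 batches, and batch 1 consisted of homozygote replicate 1, heterozygote replicate 1 and wild-type replicate 2, all 9 others being in batch 2. The labels do not name the orco allele, the age of the ants or the number of ants per library, and do not say that libraries of a genotype came from separate colonies, so p-values measure only the spread between these libraries.

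Gene-assigned counts ranged from 4.11 M to 23.2 M per library, and a member had between 34 counts (HsIr68a in wild-type replicate 2) and 886 counts (HsIr75u.2 in homozygote replicate 5) in a library. HsOrco, the targeted gene, was at 1669 to 2768 CPM (counts scaled to library size by the TMM method) in the controls and at 13.6 to 157 CPM in the homozygotes, so no homozygote or control library went against its label. Of 13 other markers of antennal cell types, 4 were called higher in the homozygotes than in the controls, 4 lower and 5 not called, and none was at 0 in any library. The summed level of 4 pan-neuronal markers was 1334 to 2213 CPM in the controls and 556 to 1262 CPM in the homozygotes. The muscle marker Mhc was at 280 to 4816 CPM in the controls and at 3109 to 8554 CPM in the homozygotes, and the glial marker repo at 105 to 134 and 134 to 180 CPM. Rh50, a marker of ammonia-sensing neurons, was at 21.1 to 63.0 CPM in the controls and 77.2 to 109 CPM in the homozygotes, and the mechanosensory marker nompC at 7.62 to 24.8 and 13.1 to 20.6 CPM. The epithelial marker grh was at 5.29 to 62.6 and 22.2 to 66.5 CPM, and the 4 support cell markers summed to 3291 to 7414 and 3715 to 5730 CPM. Most of that sum was LOC105182650, with means of 4424 CPM in the controls and 4139 CPM in the homozygotes. Within the list sv was called higher in the homozygotes (log2 fold change 1.54) and LOC105190591 lower (-0.83), and the others were not called. CPM is a share of each library, and antennal RNA is a bulk sample, in which fewer cells of a type and less RNA per cell cannot be told apart. The part that these shifts in cell type markers play in the differences below was not tested.

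Of the 7 conserved tuning IRs, 5 were higher in the homozygotes than in the controls and none was lower, at an adjusted p-value under 0.05. These were HsIr93a, HsIr68a and the 3 HsIr75f copies, while neither HsIr75u copy was called. Among all 10740 genes tested, 43.9% were called in this comparison, 18.8% higher and 25% lower. Higher genes were 42.9% of the calls, and 28.3% when CPM was scaled to library totals. The median log2 fold change was 0.85 over the 7 members and -0.04 over all genes tested. The members took up little of each library. Their summed counts were 0.00975% ± 0.000832 of all counts in genes for the wild type (SD, n = 2), 0.0109% ± 0.000111 for the heterozygotes (SD, n = 3) and 0.0153% ± 0.00334 for the homozygotes (SD, n = 7). The lowest homozygote, replicate 6 at 0.00981%, lay within the range of the control libraries.

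**Figure D1:**
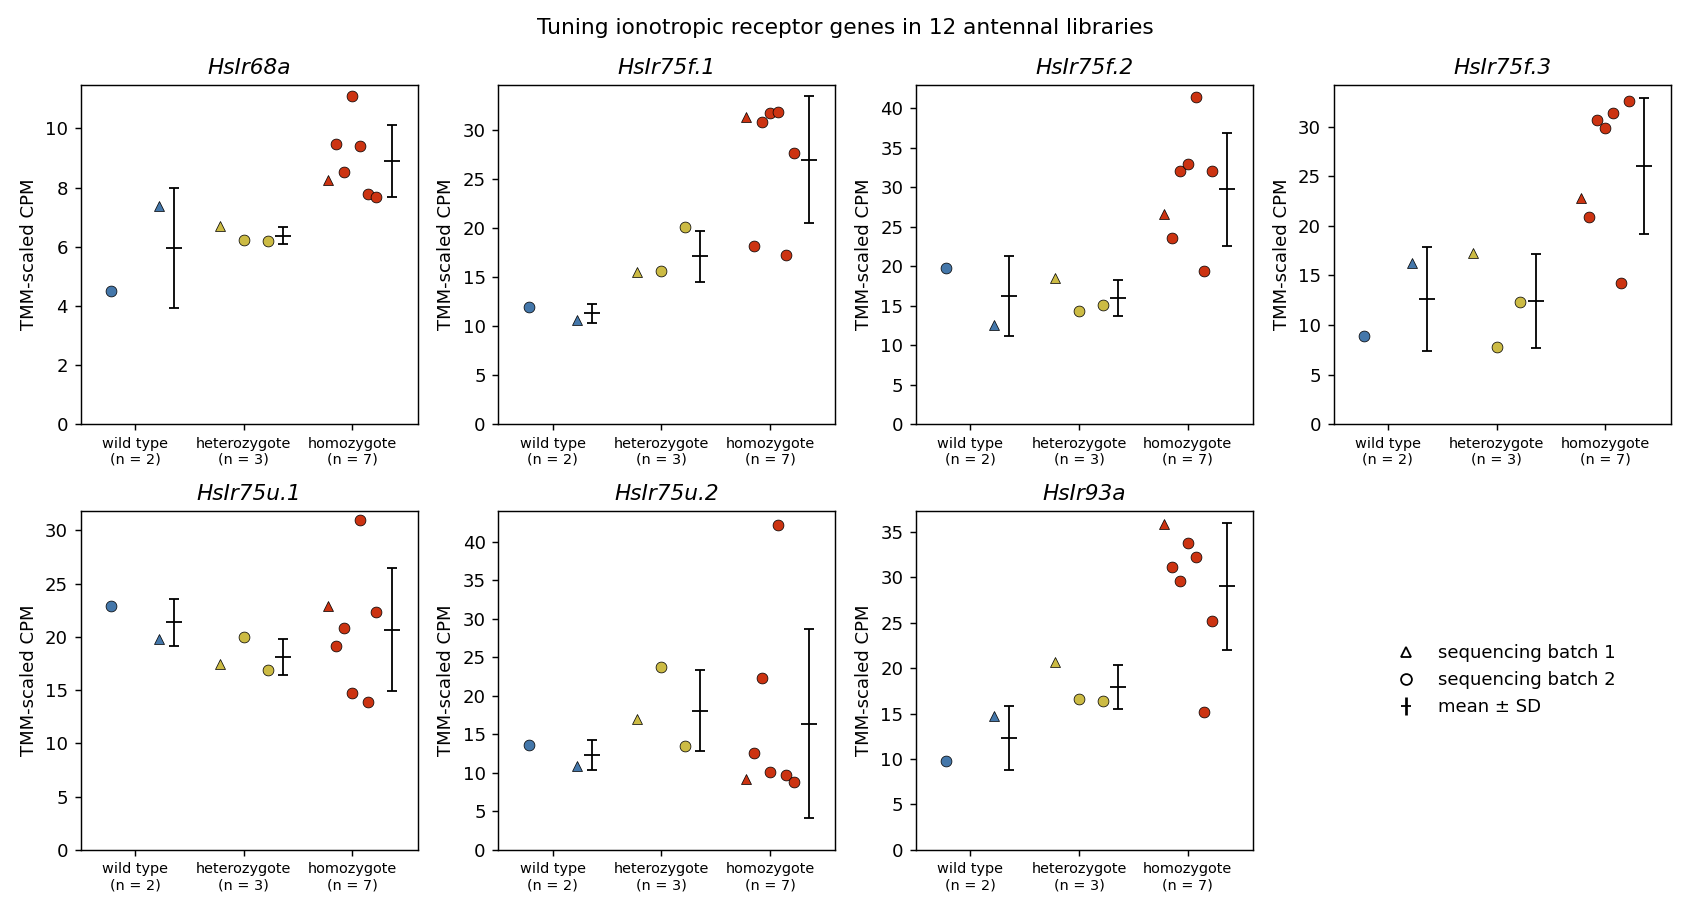
TMM-scaled CPM (y axis, from 0) of each conserved tuning IR gene in each library, by genotype (x axis). Triangles mark sequencing batch 1, circles batch 2, and the bar beside each group its mean and SD; the homozygotes lie mostly above the controls for HsIr68a, HsIr93a and the HsIr75f copies, and across them for the HsIr75u copies, where homozygote replicate 5 reached 42.1 CPM for HsIr75u.2.

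HsIr93a was at 9.81 and 14.8 CPM in the wild-type libraries, at 20.7, 16.6 and 16.4 CPM in the heterozygotes, and at 15.1 CPM (lowest), 31.1 CPM (median) and 35.9 CPM (highest) in the homozygotes. In Drosophila, Ir93a is expressed with Ir25a in cells that sense humidity and temperature. The groups overlapped through a single library, homozygote replicate 6, while the other 6 homozygotes lay above every control. The log2 fold change against the controls was 1.09 (SE 0.20, 95% interval 0.66 to 1.52, adjusted p = 0.0011 by edgeR's quasi-likelihood test), the smallest adjusted p of the 7 members. The call held without any one library.

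HsIr68a was at 4.52 and 7.39 CPM in the wild-type libraries, at 6.69, 6.22 and 6.19 CPM in the heterozygotes, and at 7.67 CPM (lowest), 8.52 CPM (median) and 11.1 CPM (highest) in the homozygotes. In Drosophila, Ir68a is the receptor of the moist-air cells of the antenna. HsIr68a was the only member whose homozygotes all lay above all controls, an order that 2.66% of all genes tested also had, and the gap was narrow, from 7.39 CPM in the highest control to 7.67 CPM in the lowest homozygote. The highest control rested on 34 counts, with an exact 95% Poisson interval of 5.12 to 10.3 CPM that covers counting error only. The log2 fold change was 0.61 (SE 0.17, adjusted p = 0.0123), the smallest of the 5 that were called. This call was lost when wild-type replicate 1, the lowest library, was left out (0.37, adjusted p = 0.170) and when CPM was scaled to library totals (0.48, adjusted p = 0.096).

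The 3 HsIr75f copies lie on a single scaffold in the study's annotation, and the Ir75 family in Drosophila holds receptors for short-chain acids and related odours. All 3 copies rose in the homozygotes.

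HsIr75f.1 was at 12.0 and 10.6 CPM in the wild type, at 15.6, 15.7 and 20.2 CPM in the heterozygotes, and at 17.3 CPM (lowest), 30.8 CPM (median) and 31.9 CPM (highest) in the homozygotes. Homozygote replicates 2 and 6, at 18.2 and 17.3 CPM, were inside the control range, and the other 5 homozygotes lay above every control. Against the controls the log2 fold change was 0.95 (SE 0.20, adjusted p = 0.0033).

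HsIr75f.2 was at 19.8 and 12.6 CPM in the wild type, at 18.5, 14.3 and 15.1 CPM in the heterozygotes, and at 19.4 CPM (lowest), 32.0 CPM (median) and 41.4 CPM (highest) in the homozygotes. Here 6 of 7 homozygotes lay above every control. Every homozygote lay above every heterozygote, and the share of all genes with that order was not computed. The fitted log2 fold change was 0.85 (SE 0.21, adjusted p = 0.0070).

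HsIr75f.3 was at 8.89 and 16.3 CPM in the wild type, at 17.3, 7.80 and 12.3 CPM in the heterozygotes, and at 14.2 CPM (lowest), 29.9 CPM (median) and 32.6 CPM (highest) in the homozygotes. Its controls were the most scattered of the 3 copies, and 6 of 7 homozygotes lay above all of them. Its log2 fold change, 1.24 (SE 0.28, adjusted p = 0.0045), was the largest of the 7 members, and the call was lost without wild-type replicate 1 (1.02, adjusted p = 0.063).

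The shares of the copies overlapped between genotypes. HsIr75f.1 held 34.1% ± 7.27 of the summed HsIr75f counts in the controls (SD, n = 5) and 32.7% ± 3.32 in the homozygotes (SD, n = 7). HsIr75f.2 held 37.2% ± 6.94 and 35.99% ± 2.45, and HsIr75f.3 held 28.6% ± 8.67 and 31.3% ± 2.75. For each copy the ranges of both groups overlapped. The wild-type libraries differed from each other, with HsIr75f.3 holding 21.8% (95% Wilson interval 18.7 to 25.4) of 577 counts in replicate 1 and 41.2% (34.3 to 48.5) of 182 counts in replicate 2. STAR counts a read only where it maps to 1 place, so reads shared by near-identical copies are missing from these values, and the level of each copy is uncertain for that reason. Among the 7 homozygotes the log2 CPM of the copies moved together, with Pearson's r from 0.83 to 0.92 between pairs, given as a description over libraries that share their depth and scaling.

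**Figure D2:**
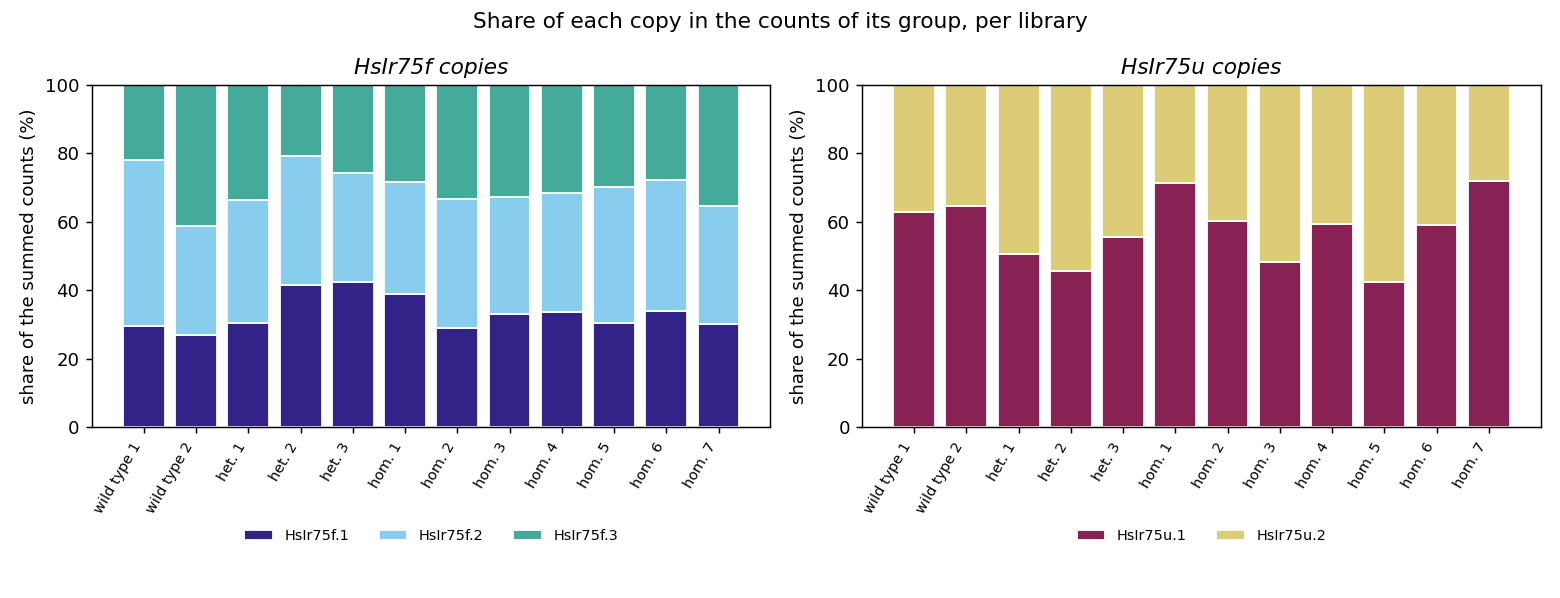
Share of each copy (y axis, percent) in the summed counts of the HsIr75f copies (left) and the HsIr75u copies (right), stacked for each library (x axis). HsIr75f shares in the homozygotes stayed between 27.9% and 39.6%, while the HsIr75u.1 share ran from 42.4% to 71.8% in the homozygotes.

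The HsIr75u copies lie on another scaffold, and neither was called in any comparison of genotypes.

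HsIr75u.1 was at 22.9 and 19.8 CPM in the wild type, at 17.4, 19.97 and 16.8 CPM in the heterozygotes, and at 13.9 CPM (lowest), 20.8 CPM (median) and 31.0 CPM (highest) in the homozygotes. The homozygotes spread to both sides of the controls, with 1 above and 2 below all of them. The log2 fold change was 0.07 with a 95% interval from -0.37 to 0.51 (adjusted p = 0.802), so these libraries leave a difference of either sign within that interval possible. Reads from the part where this gene overlaps a gene on the other strand were left uncounted as ambiguous. The libraries do not mark strand, so which of these genes gave such reads cannot be told. The sum of the counts taken per strand was 1.35 to 1.85 times the count used in the controls and 1.24 to 1.51 times in the homozygotes, against at most 1.01 times for the other members. With the summed counts, which can include reads of the other gene, the log2 fold change was -0.11 (adjusted p = 0.655).

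HsIr75u.2 was at 13.6 and 10.9 CPM in the wild type, at 17.0, 23.7 and 13.5 CPM in the heterozygotes, and at 8.76 CPM (lowest), 10.1 CPM (median) and 42.1 CPM (highest) in the homozygotes. It was the most variable member, with a coefficient of variation of 75.02% and a 4.80-fold range among the homozygotes. The mean was 15.7 ± 4.97 CPM in the controls (SD, n = 5) and 16.4 ± 12.3 CPM in the homozygotes (SD, n = 7), but 4 of the 7 homozygotes lay below every control and 1 above. The log2 fold change was 0.01 with a 95% interval from -0.98 to 1.00 (adjusted p = 0.988). Without homozygote replicate 5 it was -0.37 (adjusted p = 0.305). HsIr75u.2 made up 57.6% (95% Wilson interval 55.1 to 60.1) of the 1538 HsIr75u counts in homozygote replicate 5 and 28.2% (23.6 to 33.1) of 341 counts in replicate 7.

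**Figure D3:**
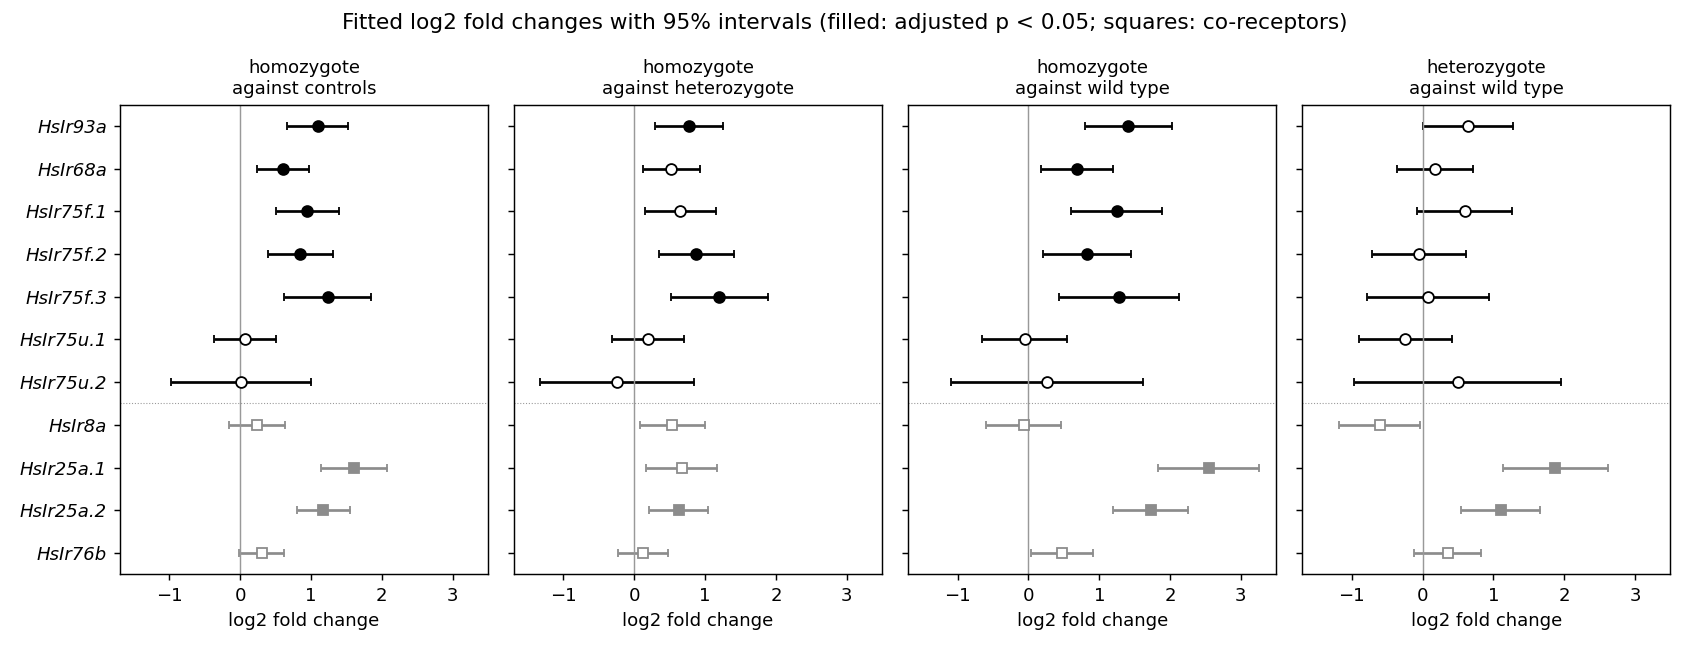
Fitted log2 fold changes (x axis) with 95% intervals for the 7 conserved tuning IRs (circles) and the 4 co-receptors (squares, grey) in 4 comparisons of genotypes. Filled symbols are called at an adjusted p under 0.05; against the controls 5 of the 7 members and both HsIr25a copies are filled, and the heterozygote column has no filled circle.

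Each control genotype was then taken alone. These comparisons share the homozygote libraries, so their values are given side by side and are not independent.

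Against the heterozygotes 3 of 7 members were called higher and none lower, where 23% of all genes were called, 6.82% higher and 16.2% lower (29.7% of calls higher, 11.6% with library totals and 44.02% with DESeq2). They were HsIr75f.3 (log2 fold change 1.20, adjusted p = 0.0179), HsIr75f.2 (0.88, adjusted p = 0.0233) and HsIr93a (0.77, adjusted p = 0.0256). HsIr68a was at 0.52 (adjusted p = 0.0618) and HsIr75f.1 at 0.65 (adjusted p = 0.0620), and DESeq2 called both, giving 5 higher. DESeq2 also called more genes higher over the whole series, 1377 against 733 in the main fit. The count rested on single heterozygote libraries, with 0 of 7 called without heterozygote replicate 2 and 1 of 7 without heterozygote replicate 3. Over all genes tested, 265 and 785 were called higher in these fits, against 733 in the main fit. Without heterozygote replicate 2 the log2 fold changes were 0.95 for HsIr75f.3, 0.76 for HsIr75f.2 and 0.79 for HsIr93a. HsIr93a lost its call without any single heterozygote (adjusted p = 0.069 to 0.090) and without homozygote replicate 1 (adjusted p = 0.051), and also with library totals (0.68, adjusted p = 0.068), with no batch term (0.70, adjusted p = 0.083) and in batch 2 alone (0.75, adjusted p = 0.076). HsIr68a gained a call without either wild-type library or without homozygote replicate 1, and HsIr75f.1 without homozygote replicate 2 or 6. HsIr75u.1 was at 0.19 and HsIr75u.2 at -0.24, and neither was called.

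Against the wild type 5 of 7 members were called higher and none lower, where 44.8% of all genes were called, 19.1% higher and 25.8% lower (42.5% of calls higher, 28.9% with library totals). HsIr93a had a log2 fold change of 1.41 (adjusted p = 0.0021), HsIr75f.3 of 1.28 (adjusted p = 0.0201), HsIr75f.1 of 1.25 (adjusted p = 0.0053), HsIr75f.2 of 0.82 (adjusted p = 0.0350) and HsIr68a of 0.69 (adjusted p = 0.0308). The wild type had 2 libraries, and without wild-type replicate 1 no member was called, with 4 of these 5 still at 0.89 or more on the log2 scale and HsIr68a at 0.25. HsIr75f.2 also lost its call without wild-type replicate 2 (0.58, adjusted p = 0.169) and, at adjusted p of 0.051 to 0.060, without homozygote replicate 1, 3, 4 or 7. HsIr75u.1 was at -0.05 and HsIr75u.2 at 0.26, and neither was called.

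No member was called between heterozygotes and wild type, where 17.8% of all genes were called (9.71% higher and 8.14% lower), and none passed an unadjusted p of 0.05 or was called by DESeq2. The log2 fold changes ran from -0.25 in HsIr75u.1 to 0.64 in HsIr93a. HsIr93a (0.64, 95% interval -0.00038 to 1.28, adjusted p = 0.150) and HsIr75f.1 (0.59, adjusted p = 0.202) had the largest of these fold changes. HsIr93a was called without homozygote replicate 6 (0.60, adjusted p = 0.0350), a library outside both groups that enters through the shared fit. The difference between the step from heterozygote to homozygote and the step from wild type to heterozygote was called for no member (0 of 7, 0 at an unadjusted p under 0.05 and 0 by DESeq2), where 15.7% of all genes were called (4.11% higher and 11.6% lower).

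Sequencing batch was checked in the same way. Between batches 0 of 7 members were called by edgeR, by DESeq2 or at an unadjusted p under 0.05, where 37.4% of all genes were called (19.7% higher and 17.8% lower, so that 52.5% of calls were higher, and 70.5% with library totals). Batch 1 holds 1 library of each genotype. The share of all genes with a given order of these 3 libraries was not computed, so their order for the members is not read as a result. Batch 2 alone holds 1 wild-type library, replicate 1, so a count of members called against the controls within it is not given. The 5 members called in the main fit stayed above 0 there, where the median log2 fold change of all genes was -0.03. In batch 2 alone HsIr93a was at 0.75 against the heterozygotes and was not called. HsIr75f.2 was at 0.61 there against the single wild-type library.

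The co-receptors give the context of these channels. HsIr25a.1 and HsIr25a.2, the copies of the partner of Ir93a and Ir68a, were higher in the homozygotes than in the controls by 1.61 and 1.18 on the log2 scale (adjusted p = 0.00015 and 0.00024). HsIr8a, whose fly relative partners the Ir75 receptors, was at 0.24 (adjusted p = 0.308) and HsIr76b at 0.30 (adjusted p = 0.110). Between wild type and heterozygote no member was called, with log2 fold changes from -0.25 up to 0.64 in HsIr93a. Both HsIr25a copies were called higher there, by 1.87 (adjusted p = 0.0043) and 1.10 (adjusted p = 0.0140). The difference between genes was not tested. Both of these calls were lost without wild-type replicate 1 (1.95, adjusted p = 0.061, and 1.22, adjusted p = 0.091), and that of HsIr25a.2 also with no batch term (1.03, adjusted p = 0.134) and in batch 2 alone (0.99, adjusted p = 0.060). Of the 12 divergent HsIr genes numbered from 300, 8 passed the count minimum, of which 3 were higher in the homozygotes than in the controls, 2 were lower and 3 were not called, with log2 fold changes from -1.55 to 1.42.

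Ratios of counts within a library do not depend on library scaling. Relative to nSyb, a synaptic vesicle gene of neurons, the mean log2 ratio of every member was higher in the homozygotes than in the controls, from 1.76 for HsIr75u.2 to 2.97 for HsIr75f.3, and no member's groups overlapped. The same lack of overlap held for 72.6% of all genes tested, so it does not set the members apart. The size depended on the neuronal reference, from 0.47 to 1.69 relative to fne, 0.68 to 1.89 relative to Syt1 and 2.23 to 3.45 relative to onecut. Relative to fne the groups overlapped for each member but HsIr75f.3 and HsIr93a. The share of all genes without overlap was not computed for fne, so whether this sets these members apart is not known. Relative to the mechanosensory gene nompC the HsIr75u copies were lower on average, by -0.21 and -0.41. Relative to HsIr25a.2 the mean log2 ratio differed by -0.01 for HsIr75f.1, 0.00 for HsIr75f.2, 0.21 for HsIr75f.3, 0.01 for HsIr93a and -0.34 for HsIr68a. The HsIr75u copies differed most, by -0.81 and -1.01. Homozygote and control ranges of the ratio to HsIr25a.2 overlapped for all 7 members. The differences depended on the co-receptor taken. Relative to HsIr25a.1 every member was lower on average, from -0.13 for HsIr75f.3 to -1.35 for HsIr75u.2. Relative to HsIr8a the mean ratio rose by 0.32 for HsIr68a to 0.87 for HsIr75f.3, and the HsIr75u copies were at -0.15 and -0.34. Relative to HsIr76b it rose by 0.28 to 0.83 for the same genes, with the HsIr75u copies at -0.19 and -0.38.

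**Figure D4:**
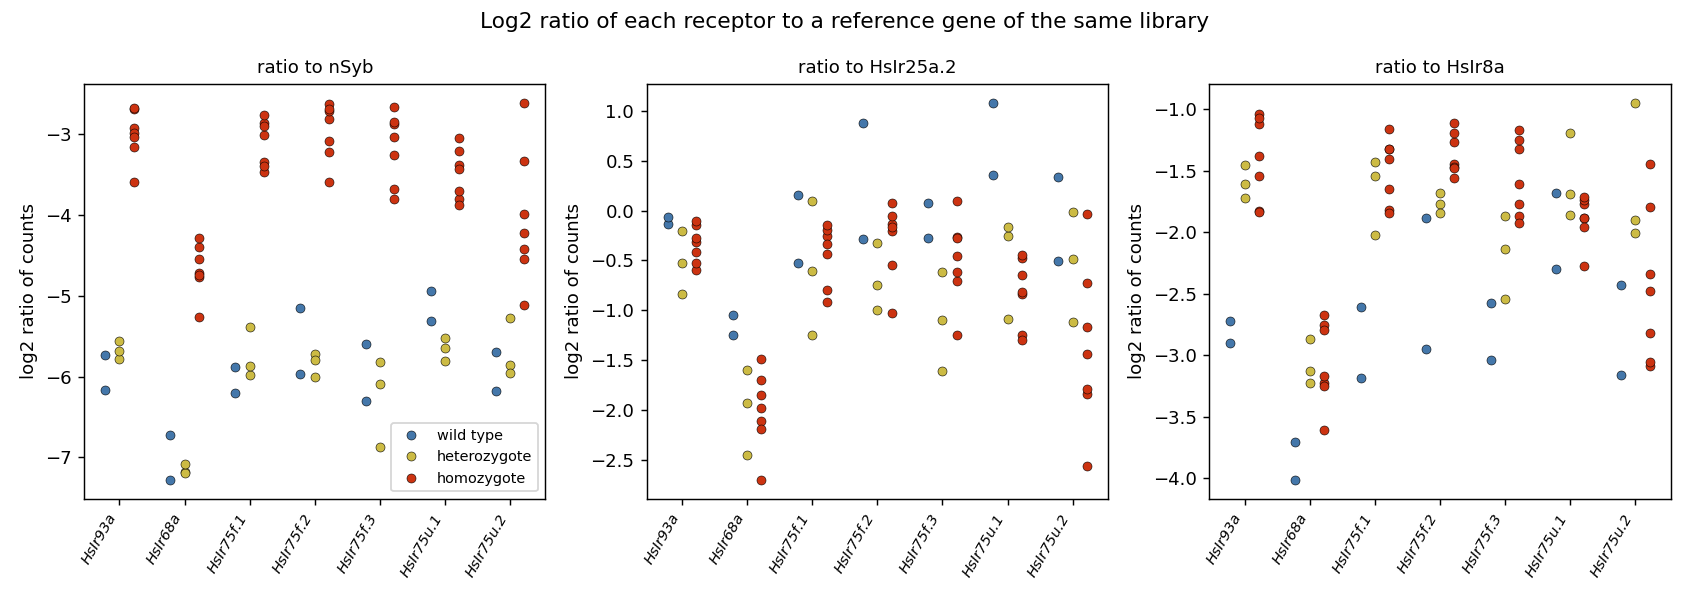
Log2 ratio of the counts of each conserved tuning IR (x axis) to nSyb, HsIr25a.2 or HsIr8a in the same library (y axis), by genotype. Relative to nSyb the homozygotes lie above all controls for each member, as for 72.6% of all genes tested, with mean differences from 1.76 to 2.97. Relative to HsIr25a.2 homozygotes and controls overlap for each member. Relative to HsIr8a they overlap for each but HsIr75f.2, and the share of all genes without overlap was not computed for that reference.

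Some homozygote libraries were at the edge for several members. Replicate 6 was the lowest homozygote for 5 of 7 members, and replicate 7 for the other two. Replicate 5, the deepest library at 23.2 M counts, was the highest homozygote for 4 of 7. Replicate 5 also held the most residual HsOrco, at 157 CPM, and the residual HsOrco of the 7 homozygotes was therefore compared with each member, a comparison chosen after the values had been seen. On log2 CPM, HsIr75u.2 gave the highest Pearson's r, 0.92 (exact two-sided permutation p = 0.0119, adjusted p = 0.0833 over 7 relations), with Spearman's rho of 0.68 (exact p = 0.110, adjusted p = 0.233). Without replicates 3 and 5, the libraries farthest from the median of HsOrco, r was 0.016, so the relation rests on those 2 libraries. Over the 6 homozygotes of batch 2 r was 0.97. For the other members r ran from 0.29 (HsIr68a) to 0.80 (HsIr75u.1), and none passed the adjustment over 7 relations. By rank HsIr75f.1 was the highest (rho 0.82, exact p = 0.034, adjusted p = 0.233), and without replicates 3 and 5 HsIr93a was (r = 0.94 over 5 libraries). The log2 of total counts had r of 0.74 with HsIr75u.2 and 0.52 with HsOrco over the same 7 libraries, given as a description, and its part in the relation was not tested.

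**Figure D5:**
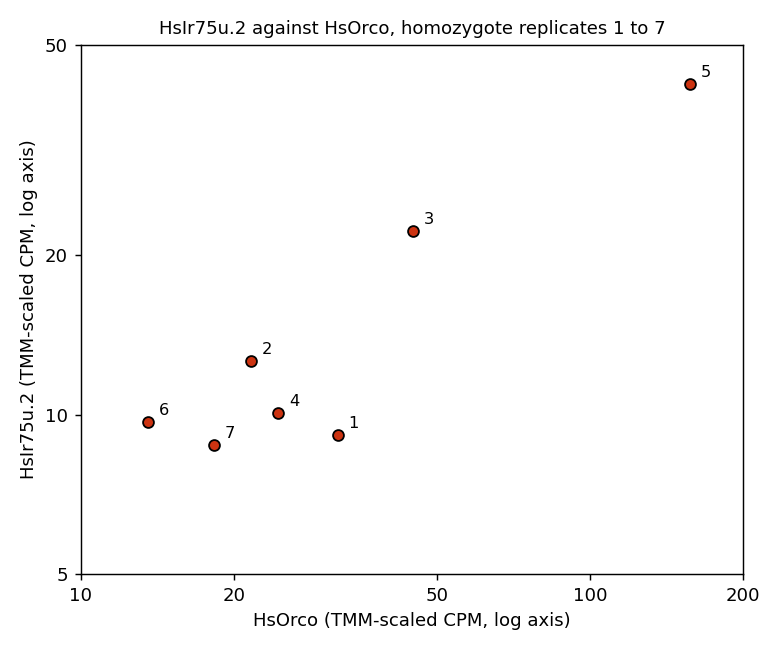
HsIr75u.2 (y axis) against residual HsOrco (x axis), both in TMM-scaled CPM on log axes, in the 7 homozygote libraries, each point labelled with its replicate number. Replicate 5 (157 CPM of HsOrco, 42.1 CPM of HsIr75u.2) and replicate 3 stand apart, and the other 5 libraries show no slope (r = 0.016).

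The genes outside the HsIr family whose log2 CPM followed each member most closely over the 12 libraries were sought among 8308 genes with a mean count of at least 100, and are given as a description, since genes that differ by genotype can score highly. For HsIr93a they were LOC105183622 (r = 0.93), LOC105191617 and LOC105182349. For HsIr68a they were LOC105191778 (r = 0.95), LOC105180468 and LOC105191779. For the HsIr75f copies the closest were G7712 with HsIr75f.1 (r = 0.92), LOC105186010 with HsIr75f.2 (r = 0.96) and LOC105191334 with HsIr75f.3 (r = 0.91). HsIr75u.2 was closest to LOC109504638 (r = 0.88, and 0.93 within the 7 homozygotes), and HsIr75u.1 had no partner above LOC112588827 at r = 0.74. No gene appeared among the 3 closest of more than 1 member.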

How the data were processed

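Per the labels and the study's methods, antennal RNA was made into libraries with a kit that does not mark strand, and the authors aligned reads with STAR 2.6.1d (intron limit 7000) and deposited raw counts per gene under their own annotation. The unstranded count column was used, and the strand columns only for the overlap check of HsIr75u.1 and 1 alternative. Lines that name no gene (unmapped reads 1.92% to 6.53% of reads, multimapping 1.69% to 2.79%, outside genes 13.0% to 18.3%, ambiguous 2.29% to 4.23%) stayed out. The authors' DESeq2 1.34.0 normalised table was not used.

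Genes with a mean count of at least 10 (10740 of 14407) were tested with edgeR 4.0.16 (limma 3.58.1, R 4.3.3) in a quasi-likelihood model of all 12 libraries with genotype, sequencing batch and TMM scaling, adjusted by Benjamini-Hochberg over all genes tested and called at 0.05. The fold change against the controls weights wild type and heterozygote equally. SEs were derived from the F statistic (log2 fold change over its square root), and 95% intervals are approximate. CPM values are not batch-adjusted, and are compared between libraries, never between genes, because gene lengths were not used here. A count of 3 corresponds to 0.129 to 0.730 CPM, and intervals on counts cover counting error only. Libraries of a genotype correlated at 0.876 to 0.987 (log2 CPM across genes, which are not independent replicates), and none was treated as a duplicate. Ratios used a pseudocount of 0.5 counts, and correlations between genes used log2 CPM with a prior count of 2. The HsOrco relation used exact permutation tests (scipy, Python) on log2 CPM. The text names all members, the co-receptors, HsOrco, cell type markers and, per member, the 3 most correlated genes. The fit was tested on simulated counts. Alternatives were DESeq2 1.42.0, library totals, other count filters, no batch term, batch 2 alone, leaving out each library, a replicate block, pooled controls and, added after seeing the data, counts from both strand columns. The members and lists were chosen with earlier results of these data known.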

Additional observations from a re-analysis of the deposited data

Results flagged for a closer look

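HsIr75u.2 in homozygote replicate 5 stood apart from the other 6 homozygotes. It was at 42.1 CPM, against 22.2 CPM in the next library, and the gap was 0.596 of the whole range, above Dixon's 95% critical value for 7 samples. Chance flags about 1 in 20 groups if values are normally distributed, and 7 groups were examined, 1 per member. The gap was taken on CPM and was not computed on log2 CPM, where the flag may differ.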

How the results depend on the processing

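Across all genes, the number called against the controls was 4712 and fell to 3037 without the batch term, 2747 with the replicate block and 3116 with the controls pooled, and lay between 2971 and 6043 when 1 library was left out. Against the heterozygotes 2468 genes were called, 1486 without the batch term, 1212 with the replicate block and 1479 to 3132 with 1 library left out. Against the wild type these counts were 4816, 2966, 3080 and 1962 to 5980. Between heterozygotes and wild type they were 1917, 721, 866 and 452 to 3909, with 3594 in batch 2 alone, and for the difference between the steps 1689, 962, 968 and 1114 to 2821. Library totals lowered the median log2 fold change of all genes against the controls from -0.04 to -0.17 and the share of calls that were higher from 42.9% to 28.3%, and the 5 called members stayed above 0.

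Members called higher against the controls numbered 5, 4 with library totals and with the replicate block, which lost HsIr68a, and 3 to 5 with 1 library left out. Against the heterozygotes the count was 3, 5 with DESeq2, 2 with library totals, with no batch term, in batch 2 alone and with the replicate block, and 0 to 4 with 1 library left out. Against the wild type the count was 5, 2 with library totals, 3 without the batch term and 3 with the replicate block. Fits that leave 1 wild-type library, as batch 2 alone does, are not counted here. Over all genes tested, 2023 were called higher against the controls, 1298 with library totals and 1301 with the replicate block. Against the heterozygotes they numbered 733, 1377 with DESeq2, 262 with library totals and 274 with no batch term. In batch 2 alone they numbered 682, and with the replicate block 275. Against the wild type they numbered 2048, 1320 with library totals, 1195 without the batch term and 1519 with the replicate block. Members called between heterozygotes and wild type numbered 0, or 1 without homozygote replicate 6. HsIr75u.1 and HsIr75u.2, never called, changed sign against the controls. HsIr75u.1 was at -0.071 with library totals, -0.013 in batch 2 alone, -0.11 with both strand columns and -0.058 to 0.15 with 1 library left out. HsIr75u.2 was at -0.15 with library totals, -0.10 with the replicate block, -0.084 with pooled controls and -0.37 to 0.13 with 1 library left out. Against the wild type, with 1 library left out, HsIr75u.1 lay between -0.21 and 0.11 and HsIr75u.2 between -0.11 and 0.36. The causes were not tested. Leaving out a wild-type library, or taking batch 2 alone, leaves 1 wild-type library, which is assumed to vary like the other groups.

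With the replicate number as a block, HsIr68a against the controls was at 0.54 (adjusted p = 0.087), HsIr75f.3 against the heterozygotes at 1.06 (adjusted p = 0.056), and against the wild type HsIr68a was at 0.62 (adjusted p = 0.111) and HsIr75f.3 at 0.96 (adjusted p = 0.064), and no other call of a member changed. Correlations of deviations between same-numbered libraries of different genotypes ran from -0.56 to 0.53, the highest for heterozygote and homozygote replicate 1, of the same batch. Batch was left in the deviations, and those of the 2 wild types mirror each other. These values therefore cannot decide whether the numbers pair the samples. The shallowest library, wild-type replicate 2, held 34 counts of HsIr68a.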
